A study of Mus musculus with 6 samples.

Results

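The guanylate-binding protein (GBP) genes were followed here as the 6 rows of the deposited table that carry the symbols Gbp2, Gbp3, Gbp4, Gbp6, Gbp7 and Gbp9, out of 559 genes in all. The libraries came from natural killer (NK) cells, lymphocytes that kill infected and tumour cells and secrete interferon gamma, purified from the spleen of mice labelled C57BL/6 with no other allele given. There were 3 control libraries and 3 libraries of cells given oleic acid (OA) at 0.2 mM, both groups kept for 36 h; oleic acid is a fatty acid with a single double bond. Neither the age of the mice nor any pooling of animals is stated in the sources used here. The labels' protocols say that the treatment was carried out once, so the p-values below measure only the spread between these libraries, which may be technical.

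GBPs are large GTPases related to dynamin whose genes are switched on by interferon gamma and, less strongly, by type I interferons. They assemble on the vacuoles of intracellular parasites and on the surface of bacteria that escape into the cytosol, and help to open these to the inflammasome and caspase-11. Mouse GBP genes lie in a cluster on chromosome 3 and another on chromosome 5, and several of them are near-identical copies.

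On the mouse build GRCm38 (RefSeq coordinates, the build that mm10 names), Gbp7, Gbp3 and Gbp2 lie in this order on the plus strand of chromosome 3, at chr3:142530336-142550151, chr3:142560016-142573213 and chr3:142620663-142638008. Gbp9, Gbp4 and Gbp6 lie on the minus strand of chromosome 5, at chr5:105076464-105110357, chr5:105115767-105139586 and chr5:105270702-105295871. The values below are whole-gene values and do not separate exons or isoforms.

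RefSeq promoter windows on GRCm38.p6 were matched for Gbp2, Gbp3 and Gbp7. The 250 bases before an annotated start of each are shown because the transcripts of these genes fell together and because interferon-induced genes are known for a sequence called the interferon-stimulated response element (ISRE), which binds IRF and STAT factors, and for a further element, the gamma-activated site (GAS). Capitals mark matches on either strand to the ISRE core, taken as GAAA, 2 bases of any kind and GAAA, and to the GAS core, taken as TTCNNNGAA. The windows are chr3:142620413-142620662 (Gbp2), chr3:142559794-142560043 (Gbp3) and chr3:142530086-142530335 (Gbp7), all on the plus strand and written 5′ to 3′.
Gbp2: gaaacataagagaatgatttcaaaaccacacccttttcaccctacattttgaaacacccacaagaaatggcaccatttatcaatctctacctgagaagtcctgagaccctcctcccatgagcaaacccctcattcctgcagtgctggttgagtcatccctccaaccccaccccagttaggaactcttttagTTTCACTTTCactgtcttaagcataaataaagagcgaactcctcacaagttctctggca
Gbp3: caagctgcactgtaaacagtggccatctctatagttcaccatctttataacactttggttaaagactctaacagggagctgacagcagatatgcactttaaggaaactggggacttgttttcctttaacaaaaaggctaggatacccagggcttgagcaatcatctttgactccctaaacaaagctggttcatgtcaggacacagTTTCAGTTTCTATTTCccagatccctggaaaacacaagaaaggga
Gbp7: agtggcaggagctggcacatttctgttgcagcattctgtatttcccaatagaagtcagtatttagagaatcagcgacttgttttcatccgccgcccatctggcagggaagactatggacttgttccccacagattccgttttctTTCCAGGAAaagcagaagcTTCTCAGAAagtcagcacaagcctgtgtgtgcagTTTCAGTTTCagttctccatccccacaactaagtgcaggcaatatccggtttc

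Each of these 3 windows held the ISRE core, against 2.98% of the 32851 RefSeq promoter windows of the same length. In Gbp2 it spanned bases 59 to 50 before the start, and in Gbp7 bases 53 to 44. In Gbp3 there were 2 overlapping matches, at bases 45 to 36 and 39 to 30. Only the Gbp7 window also held the GAS core, 2 times, at bases 106 to 98 and 87 to 79, and 7.02% of all windows held it at least once. A second Gbp3 start, whose window is chr3:142560106-142560355, had neither core. A match is a string of letters and does not show that a factor was bound.

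Transcripts of all 6 GBP genes were lower after OA, with means from 17.5% (Gbp6) to 26.7% (Gbp3) below the control means. In limma, a linear model fitted to log2(TPM + 1) of all 559 genes, 6 of 6 fell and 0 rose at a Benjamini-Hochberg adjusted p under 0.05, with log2 fold changes between −0.44 (Gbp3) and −0.27 (Gbp6). TPM is a gene's share of all transcripts of a library after correction for length, so levels of different genes can be set side by side. The authors deposited only genes with a Q value under 0.05 in this same comparison, so most of the table was called: 40.1% of its genes fell in limma and 36.0% rose. All 6 GBP genes also had every OA library below every control library, as did 48.5% of the table. The counts therefore describe these genes and do not set them apart. The limma p-values of single genes come from the same libraries and were adjusted over this selected table only. They are therefore no test independent of the authors' selection, here and for every gene below. In bulk RNA, fewer cells of a type and less RNA per cell cannot be told apart.

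Gbp2, which carries a lipid anchor and is recruited to the vacuole of Toxoplasma, was the most abundant member. It stood at 652.16, 643.12 and 812.43 TPM in control replicates 1, 2 and 3, against 554.68, 540.81 and 488.2 TPM in the OA libraries in the same order. Control replicate 3 was the highest library, OA replicate 3 the lowest, and the groups were parted by a gap of 88.44 TPM. The control mean was 702.57 ± 95.25 TPM and the OA mean 527.9 ± 35.1 TPM (SD, n = 3 per group), which is 24.9% lower (log2 fold change −0.41, SE 0.114, adjusted p = 0.0314, limma).

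Gbp3, its neighbour in the chromosome 3 cluster, had control values of 109.35, 103.53 and 138.94 TPM and OA values of 93.25, 86.84 and 77.63 TPM. The groups did not overlap, and control replicate 3 again stood above the other controls. Its mean was 117 ± 19.0 TPM in control and 85.9 ± 7.85 TPM in OA (SD, n = 3 per group), which is 26.7% lower (log2 −0.44, SE 0.136, adjusted p = 0.0372, limma).

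Gbp7, a member reported to help assemble the phagocyte oxidase, stood at 119.76, 125.16 and 146.67 TPM in control and at 108.19, 102.17 and 94.64 TPM in OA. All 3 OA libraries lay below the lowest control, by at least 11.57 TPM. Its mean was 22.1% lower in OA (log2 −0.35, SE 0.0989, adjusted p = 0.0314, limma).

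Gbp4, the most abundant member of the chromosome 5 cluster in the table, stood at 234.83, 237.09 and 300.55 TPM in control and at 203.2, 192.94 and 173.97 TPM in OA. The groups did not overlap, with control replicate 3 highest and OA replicate 3 lowest. Its mean was 26.2% lower in OA (log2 −0.43, SE 0.122, adjusted p = 0.0323, limma).

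Gbp9, the least abundant of the 6, stood at 69.63, 69.36 and 81.73 TPM in control and at 62.11, 57.29 and 49.77 TPM in OA. The lowest control and the highest OA library were 7.25 TPM apart. Its mean was 23.4% lower in OA (log2 −0.38, SE 0.112, adjusted p = 0.0332, limma).

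Gbp6 had the smallest difference of the 6. It stood at 184.01, 181.34 and 221.71 TPM in control and at 164.11, 162.74 and 157.62 TPM in OA, so that the OA libraries lay within a few TPM of each other (SD 3.42, n = 3) while the control libraries did not (SD 22.6, n = 3). Its mean was 17.5% lower in OA (log2 −0.27, SE 0.0914, adjusted p = 0.0433, limma). Gbp6 is also the member whose reads are hardest to assign: of the distinct stretches of 100 bases in its GENCODE M21 transcripts, 64.5% also occur in a transcript of another gene. These include 59.0% found in Gm43302, an annotated gene that overlaps the Gbp6 locus, and 36.3% found in the neighbouring Gbp10; neither gene was listed. How the counting assigned such reads is not stated, so the Gbp6 value is uncertain in this respect. For Gbp2, Gbp3, Gbp4 and Gbp9 the share of such stretches found in a transcript of any other gene was between 0% and 1.65%, and for stretches of 50 bases between 2.03% (Gbp2) and 8.05% (Gbp9). For Gbp7, 9.59% of the stretches also occur in the processed pseudogene Gm43802, which is annotated within the Gbp7 locus.

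**Figure D1:**
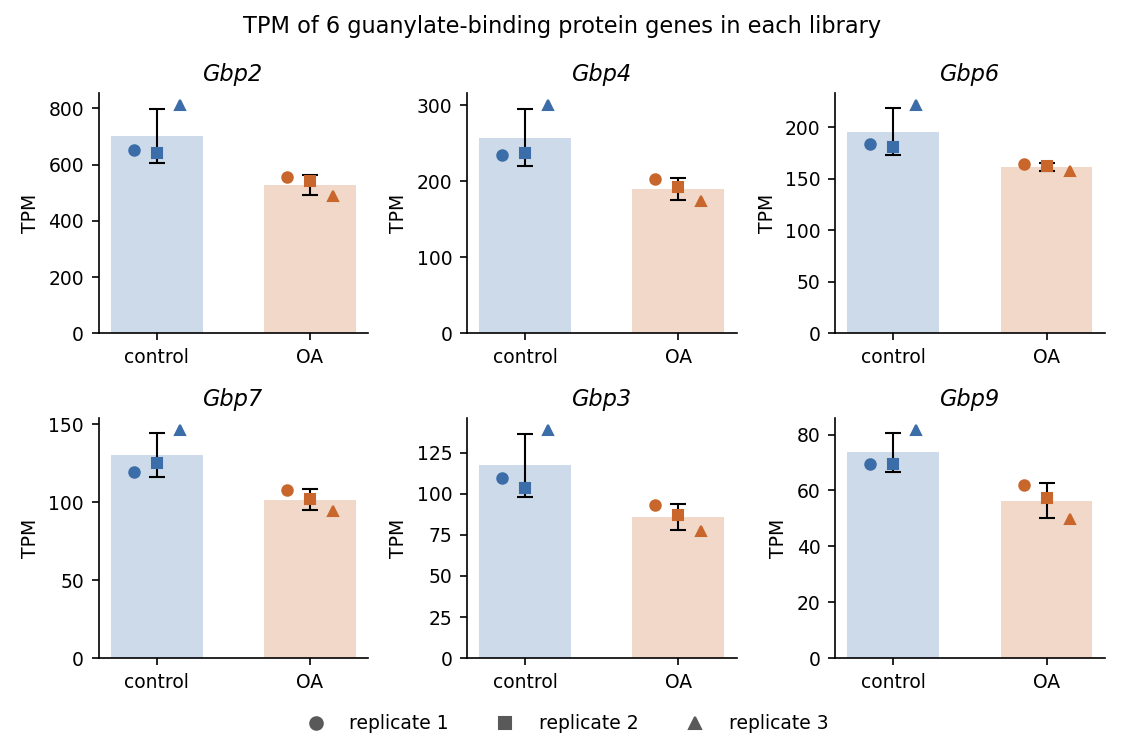
TPM (vertical axes, starting at 0) of each GBP gene in the 3 control and 3 OA libraries; bars are group means, error bars are SD (n = 3) and points are libraries, with 1 marker shape per replicate number. In each panel every OA point lies below every control point, and control replicate 3 is the highest point.

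The authors' deposited table gave the same direction for each gene. In the authors' deposited table the log2 fold changes were −0.41 for Gbp2, −0.44 for Gbp3, −0.43 for Gbp4, −0.27 for Gbp6, −0.35 for Gbp7 and −0.34 for Gbp9. The authors' deposited table ranked the genes otherwise than limma did, with the smallest Q for Gbp4 (2.65e-05) and the largest for Gbp2 (0.0287). Among the 272 genes of the table that were lower by sign, whose median log2 fold change was −0.29, the GBP falls were moderate in size. Larger falls than that of Gbp3 were seen in 53 of these 272 genes, and larger falls than that of Gbp6 in 153.

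How far the GBP transcripts differed between the groups depended on the third replicate of each group. In control replicate 3 each GBP gene was higher than the mean of the other controls, from 1.18 times (Gbp9) to 1.31 times (Gbp3). OA replicate 3 was the lowest OA library for each gene, at 0.834 (Gbp9) to 0.964 (Gbp6) of the mean of the other OA libraries. This pattern was shared by the sum of the 272 listed genes that were lower by sign. That sum was 72220.2, 71573.0 and 78308.5 TPM in control replicates 1, 2 and 3, and 64021.1, 61567.9 and 55935.9 TPM in OA. For Gbp2, control replicate 3 exceeded the other controls by 164.8 TPM, which is more than the 99.9 TPM that parted the mean of controls 1 and 2 from that of OA libraries 1 and 2. Without replicate 3 of both groups all 6 genes were called lower by limma, against 34.2% of the table. The log2 fold changes shrank to between −0.25 (Gbp4) and −0.16 (Gbp6), and the means were 10.5% (Gbp6) to 16.1% (Gbp4) lower in OA. This took away the highest control and the lowest OA library of each gene, and with them much of the spread. The SE of Gbp2 was 0.0342, against 0.114 with all libraries, so these calls are no separate support.

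The calls themselves were lost when most single libraries were left out. In limma 0 of 6 members were called when control replicate 1 was left out (0% of the table called lower), and likewise for control replicate 2 (2.33%), OA replicate 2 (0%) and OA replicate 3 (24.7%). Without control replicate 3 only Gbp6 was called (5.37% of the table), and without OA replicate 1 the 5 members other than Gbp6 were (33.5%). At an unadjusted p under 0.05 limma called 6 members lower without either of these control libraries (30.1% of the table without replicate 1, 32.9% without replicate 2), and 4 without either of these OA libraries (30.1% without replicate 2, 34.5% without replicate 3). With the libraries scaled to equal medians of the listed genes, 1 member, Gbp2, was called, against 14.7% of the table. Leaving out libraries cannot turn the sign of genes whose groups do not overlap.

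**Figure D2:**
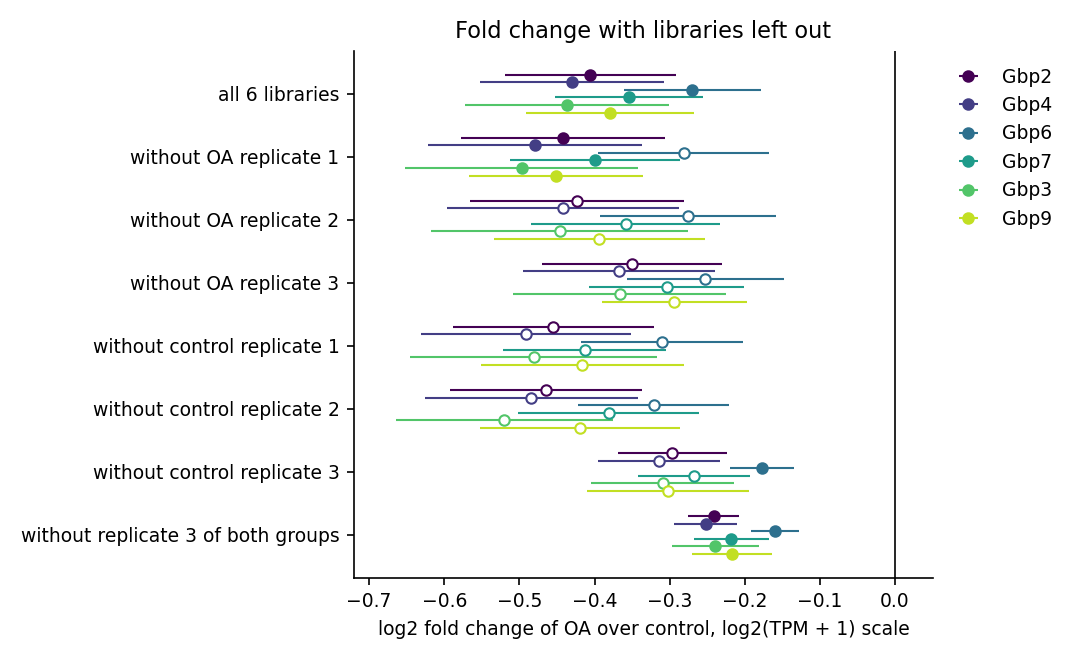
Log2 fold change of OA over control on the log2(TPM + 1) scale (horizontal axis) for each GBP gene with all 6 libraries and with libraries left out (rows); bars are standard errors, and filled points have an adjusted p under 0.05 in limma. All points lie below 0, and they come closest to it without replicate 3 of both groups.

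The order of the levels was the same in all 6 libraries: Gbp2, then Gbp4, Gbp6, Gbp7, Gbp3 and Gbp9. Gbp2 was 2.70 to 2.78 times as abundant as Gbp4 in the control libraries and 2.73 to 2.81 times in the OA libraries. Gbp7 and Gbp3 were the only neighbours in this order whose ranges overlapped within a group, and only in control, although within each library Gbp7 was higher, by 1.06 to 1.21 times in control and 1.16 to 1.22 times in OA.

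The make-up of the GBP transcripts differed little between the groups beside the difference in their sum. The 6 genes had control sums of 1369.74, 1359.6 and 1702.03 TPM and OA sums of 1185.54, 1142.79 and 1041.83 TPM. The chromosome 3 members came to 0.753 of their control level in OA and the chromosome 5 members to 0.774. Gbp2 made up 47.5% ± 0.222 of the sum in control and 47.0% ± 0.291 in OA (SD, n = 3 per group). Gbp6 made up 13.3% ± 0.213 of the sum in control and 14.4% ± 0.659 in OA (SD, n = 3 per group), a difference of 1.14 percentage points, with 13.43%, 13.34% and 13.03% in control and 13.84%, 14.24% and 15.13% in OA. Gbp4 made up 17.4% ± 0.258 in control and 16.9% ± 0.222 in OA, a difference of −0.506 points. For both, the two-sided exact permutation test gave p = 0.1 (adjusted p = 0.3 over 6 genes, n = 3 per group), which is the smallest p that 3 libraries against 3 allow, so neither could pass. The differences for Gbp2, Gbp3, Gbp7 and Gbp9 were between −0.559 and 0.195 points, with exact p between 0.2 and 1.

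**Figure D3:**
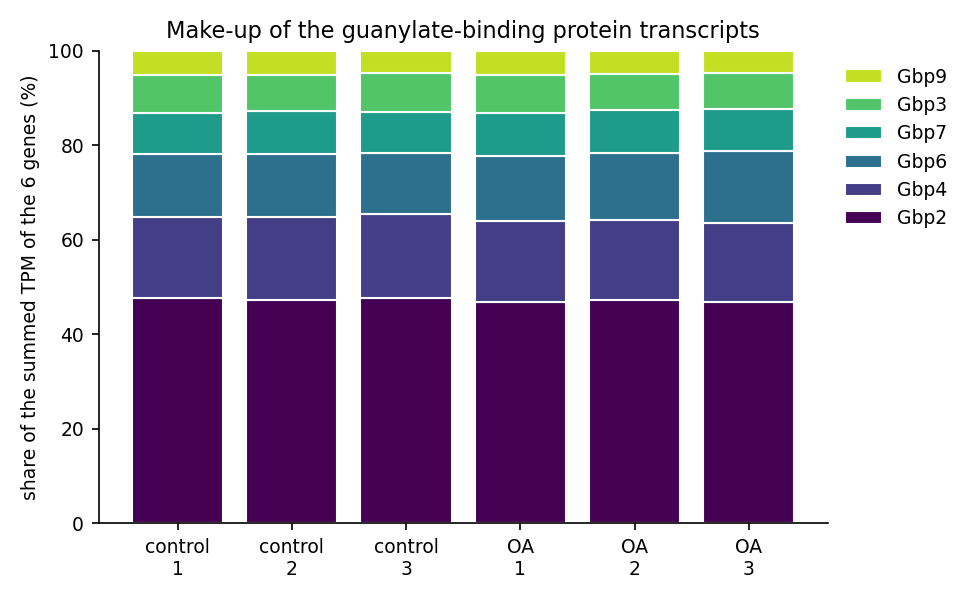
Share of each GBP gene in the summed TPM of the 6 genes (vertical axis, percent) in each library. Gbp2 takes between 46.8% and 47.7% of the sum in every library, and the Gbp6 band is widest in OA replicate 3 (15.13%).

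GBP genes are placed in their pathway by lists chosen with results of these data known, so the counts below describe the lists. A gene was listed only if the authors had called it, so a high share of called members was to be had in any list. None of the 6 symbols taken for the rest of the GBP family (Gbp1, Gbp2b, Gbp5, Gbp8, Gbp10 and Gbp11) and none of the 10 genes of the ATG8 conjugation list, whose products help to place GBPs on vacuoles, were listed, which does not mean that they were unchanged. Of 14 genes of interferon gamma signalling, the table held 4. In limma 3 fell and none rose, where 40.1% of the whole table fell and 36.0% rose. The remaining 1 missed the threshold, and the 4 had a median log2 fold change of −0.27, against 0.14 over the whole table. Ifng, which encodes interferon gamma itself, stood at 1432.72, 1334.82 and 1782.73 TPM in control and at 1042.92, 910.9 and 682.64 TPM in OA (log2 −0.80, SE 0.195, adjusted p = 0.0281, limma). Like the GBP genes, and like the sum of the 272 genes lower by sign, it was highest in control replicate 3 and lowest in OA replicate 3. Irf1, a transcription factor that binds the ISRE, was 18.2% lower in OA (log2 −0.29), and Socs1, a feedback inhibitor of the receptor, also fell (log2 −0.26). Socs3, another feedback inhibitor, did not pass (log2 0.12, adjusted p = 0.0627, limma).

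The immunity-related GTPases act with GBPs on parasite vacuoles. Of 19 other interferon-inducible GTPases, these included, the table held 7. In limma 6 fell and none rose, against 40.1% and 36.0% of the whole table, and 1 missed the threshold (median log2 of the 7 −0.25). Iigp1 (log2 −0.37), Gm12250 (log2 −0.34) and Irgm1 (log2 −0.28) fell, sizes within the range of the GBP genes. Tgtp1, Igtp and Irgm2 fell with log2 fold changes of −0.23, −0.21 and −0.18. Ifi47 did not pass (log2 −0.25, adjusted p = 0.0579, limma).

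Of 24 other interferon gamma targets, the table held 10. In limma 9 fell and none rose, against 40.1% and 36.0% of the whole table. The remaining 1 missed the threshold, and the 10 had a median log2 of −0.56. Cxcl9, a chemokine gene, stood at 16.86, 16.9 and 27.69 TPM in control and at 11.7, 8.99 and 5.73 TPM in OA (log2 −1.14, SE 0.307, adjusted p = 0.0301, limma). Nos2, which encodes inducible nitric oxide synthase, fell (log2 −0.88), as did the transcription factor gene Batf2 (log2 −0.80), Ifi205 (log2 −0.68) and the chemokine gene Cxcl10 (log2 −0.58). Ly6i, Rtp4, Ifi204 and Ifi203 fell with log2 fold changes of −0.54, −0.49, −0.42 and −0.30. Nlrc5, the activator of class I genes, did not pass (log2 −0.27, adjusted p = 0.0514, limma). Whether any of these differences was larger than that of the GBP genes was not tested. Of 11 symbols taken for type I interferon signalling, the 1 listed, Isg15, a ubiquitin-like modifier, fell (log2 −0.33).

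Listed partners of GBP function did not follow one direction. Of 10 genes of the caspase-11 and inflammasome list, 2 were listed: Casp4, which encodes caspase-11, fell from 103.7 ± 5.82 to 86.5 ± 4.08 TPM, and Il1b rose from 3246 ± 137 to 3850 ± 111 TPM (SD, n = 3 per group). Il1b also counts among the myeloid markers given further on. Some GBPs are anchored to membranes by prenyl groups made from intermediates of the sterol pathway. Of 8 genes of the prenylation list the table held 2, and 2 rose in limma, as did 36.0% of the whole table. Fdps, which makes the farnesyl donor, rose by 0.24 on the log2 scale.

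**Figure D4:**
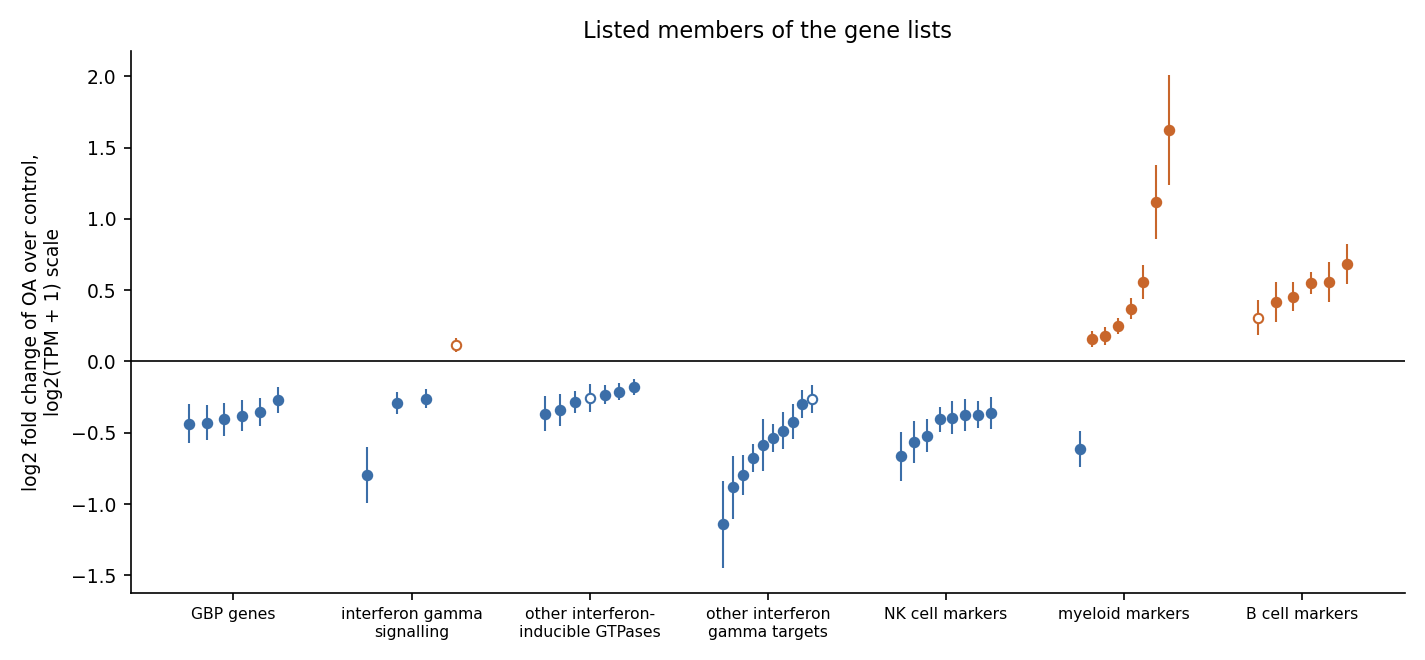
Log2 fold change of OA over control (vertical axis, log2(TPM + 1) scale) for the GBP genes and for every listed member of 6 of the lists; points are genes, bars are standard errors, filled points have an adjusted p under 0.05 in limma, and blue and orange mark lower and higher in OA. The 6 GBP genes lie between −0.44 and −0.27, and the listed myeloid and B cell markers lie mostly above 0.

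GBP genes are expressed in many cell types, and markers of several cell types moved with the groups. The marker counts here are to be read beside the whole table, of which 40.1% fell and 36.0% rose. Of 10 NK markers 8 were listed and 8 fell. Their control sums were 3385.8, 3323.25 and 4062.15 TPM and their OA sums 2758.16, 2584.9 and 2125.94 TPM. That is 0.693 of the control level, where the GBP genes came to 0.761. Gzmb and Gzma made up most of the NK sum, with control means of 1551 and 861 TPM, and came to 0.677 and 0.630 of control. The other listed NK markers came to between 0.699 (Ncr1) and 0.7775 (Prf1), a range that holds the GBP value. The NK marker sum was highest in control replicate 3 and lowest in OA replicate 3. The GBP sum and the sum of the 272 genes lower by sign were so too. Of 13 monocyte, macrophage and dendritic cell markers 8 were listed, of which 7 rose and 1, Ly6c2, fell. Their sum ranged from 4518.4 to 5075.39 TPM in control and from 5729.71 to 6092.93 TPM in OA. Il1b made up most of this sum, with means of 3246 TPM in control and 3850 TPM in OA. Of 9 B cell and plasma cell markers 6 were listed, of which 5 rose and 1 did not pass; their sum ranged from 323.1 to 402.69 TPM in control and from 503.08 to 592.25 TPM in OA. Both listed T cell markers of 8, Cd28 and Icos, fell, and the 1 listed neutrophil marker of 6, Mmp9, rose. None of the marker genes that define these types and were listed stood at 0 in any library. The part of the cell mixture in the GBP difference was not tested, and which cells carried the GBP transcripts was not measured.

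**Figure D5:**
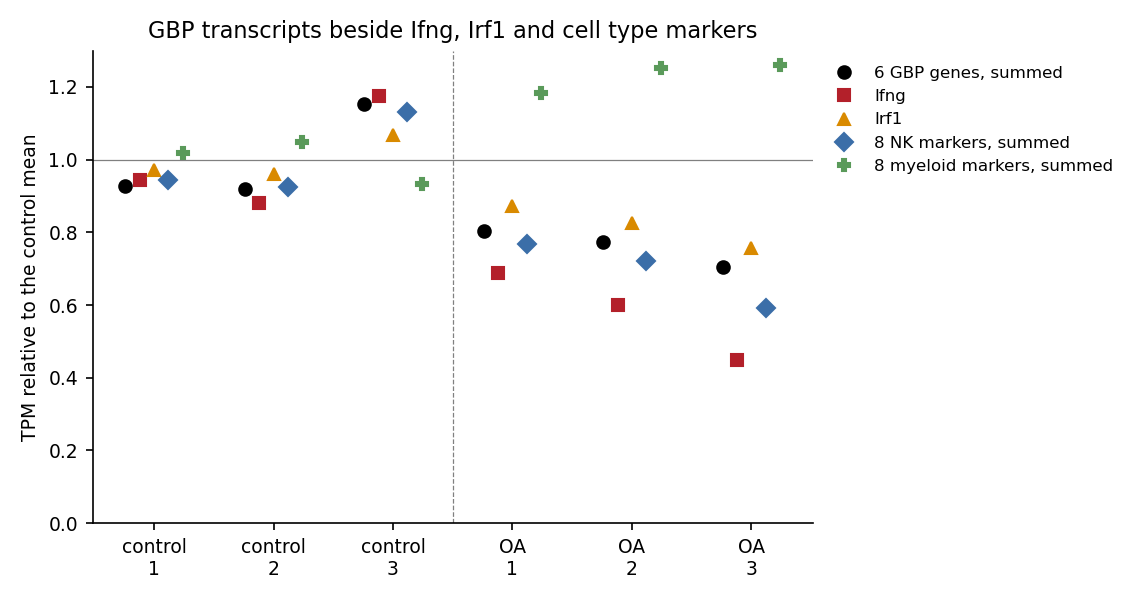
Summed TPM of the 6 GBP genes, of 8 NK markers and of 8 myeloid markers, and TPM of Ifng and Irf1, each divided by its mean over the control libraries (vertical axis), in each library. The GBP sum lies at 1.15 in control replicate 3 and at 0.803, 0.774 and 0.705 in OA replicates 1, 2 and 3. The NK marker sum and Ifng lie further down in each OA library. Gzmb and Gzma make up most of the NK marker sum, and Il1b most of the myeloid marker sum.

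OA replicate 3 also held transcripts of heart muscle. The 19 listed genes of a list of 30 summed to between 39.65 and 64.62 TPM in control and to 56.0, 552.87 and 7444.79 TPM in OA replicates 1, 2 and 3. With each library rescaled after taking these genes out, all 6 GBP genes were called lower, as was 41.3% of the table. The log2 fold changes were then between −0.43 (Gbp3) and −0.27 (Gbp6). Only listed heart genes could be taken out and the rescaling moved the values little, so it is a weak check on heart muscle RNA.

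Over the 6 libraries the GBP genes varied together: Pearson's r of log2(TPM + 1) lay between 0.929 and 0.998 over the 15 pairs, and between 0.772 and 0.994 after each group's mean was taken out. The genes most like their mean pattern over the 6 libraries were Hnrnpab, an RNA-binding protein gene, C1s1, a complement protease gene, Nolc1, a nucleolar protein gene, Tfrc, the transferrin receptor gene, and Ifi203 of the interferon-inducible IFI200 family (r from 0.993 to 0.996). After the group means were taken out they were Serpina3f, Hnrnpab, C1s1, Calhm6 and the proteasome activator gene Psme2 (r from 0.982 to 0.997). Each of these genes was lower in every OA library than in every control library, as was 48.5% of the table. For those picked over the 6 libraries this was largely fixed by the choice, because the GBP pattern itself has groups that do not overlap. Serpina3f, which encodes a serine protease inhibitor, stood at 166.59, 165.16 and 210.87 TPM in control and at 153.9, 148.83 and 134.99 TPM in OA, and it did not pass in limma (adjusted p = 0.0589), nor did Hnrnpab (adjusted p = 0.0538). These correlations rest on 6 points that share their libraries, and they are given as a description.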

How the data were processed

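Values of 3 control and 3 OA libraries came from the one deposited table, which lists 559 genes. The columns are, per the file headers, TPM per library, a mean TPM per group, and the authors' log2 fold change, P value and Q value of OA over control. Per the submitters' processing notes the tools were Bowtie2, RSEM 1.3.1 and DESeq2 1.4.5 and the build was mm10, with no roles stated. The annotation and read length: not given in the sources used here. All deposited Q values were under 0.05 (largest 0.0499), so the table was selected on this comparison. Read numbers cannot be had from TPM, so the depth of every library is unknown and count models were not used. A rise in abundant transcripts lowers the TPM of others.

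Columns were matched to samples by title and grouped by the labelled treatment. limma 3.58.1 (R 4.3.3) was fitted to log2(TPM + 1) of all 559 genes, with no filter and no covariate, two-sided, with Benjamini-Hochberg adjusted p under 0.05. Fold changes are on this scale, where changes of low genes come out too small. Shares of the summed TPM were compared by a two-sided exact permutation test. No 2 libraries were identical. The members, lists and named genes were chosen with earlier results of these data known. Named genes were the members, every listed member of the pathway lists, and the 5 genes most like the members' mean standardised pattern over 6 libraries, with and without group means. The fit was tested on simulated data with independent noise for each gene and most genes unchanged. That test does not cover the selection of this table or shifts shared by many genes of a library. Other software was scipy 1.17.1, pandas 2.3.3, matplotlib 3.10.9 and numpy 2.4.6 under Python 3.11.15. Coordinates are RefSeq's on GRCm38.p6, matched by gene ID for 6 of 6 members, and promoter windows were matched by symbol for 3 of 6. Alternatives were other pseudocounts, a level filter, scaling, a replicate block, a limma prior with trend, other thresholds and libraries left out. One gene of the prenylation list is not reported here.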

Additional observations from a re-analysis of the deposited data

How the results depend on the processing

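Pseudocounts of 0.1 and 5 TPM, a minimum mean of 10 TPM, rescaling without heart muscle genes, a limma prior with trend and robust fit and leaving out replicate 3 of both groups each left all 6 GBP genes called, as did an adjusted p under 0.1. Of the listed genes, 224 and 242 of 559 were called lower with these pseudocounts, and 245 of 472 with the minimum mean. The other settings, in the order given, called 231, 259, 191 and 270 of 559 lower. Leaving out replicate 3 of both groups took away the outermost libraries of each GBP gene, so its calls rest on a reduced spread. With libraries scaled to equal medians, limma called 1 GBP gene, and Gbp3, Gbp4, Gbp6, Gbp7 and Gbp9 did not pass at −0.45, −0.44, −0.28, −0.36 and −0.39 (adjusted p from 0.0505 to 0.0662). That scaling called 82 listed genes lower and 162 higher against 224 and 201, and it called 1 lower gene of interferon gamma signalling, 0 other interferon-inducible GTPases (5 at an unadjusted p under 0.05), 0 lower genes of the caspase-11 list (1 unadjusted) and 1 higher gene of the prenylation list, against 2 as deposited. At an adjusted p under 0.01 limma called 0 GBP genes and 0 members of each list, and 1 listed gene lower and 0 higher (252 and 213 at an unadjusted p under 0.05). At an adjusted p under 0.1, 1 gene of interferon gamma signalling, Socs3, was called higher. The prior with trend and robust fit called 1 higher gene of the prenylation list, down from 2.

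With the replicate number as a block, limma called 0 GBP genes, 0 members of each list, and 0 of the listed genes lower and 0 higher (89 lower and 149 higher at an unadjusted p under 0.05, with 0 GBP genes among them). The log2 fold changes stayed at −0.41, −0.44, −0.43, −0.27, −0.35 and −0.38 for Gbp2, Gbp3, Gbp4, Gbp6, Gbp7 and Gbp9, with adjusted p from 0.117 to 0.127. The libraries share only a number: the deviations of same-numbered libraries from their group means correlated at 0.327, −0.109 and −0.0809 over the 559 genes, and only control replicate 1 and OA replicate 1 correlated best with their own number. Without the heart muscle list (540 genes) the correlations were −0.0144, −0.063 and −0.114, and that pair no longer stood out in this way.

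With 1 library left out, the log2 fold change ranged from −0.46 to −0.30 for Gbp2, −0.52 to −0.31 for Gbp3, −0.49 to −0.31 for Gbp4, −0.32 to −0.18 for Gbp6, −0.41 to −0.27 for Gbp7 and −0.45 to −0.29 for Gbp9, and between 0 and 5 GBP genes were called. Listed genes called ranged from 0 to 187 lower and 0 to 177 higher. Called lower were 0 to 3 of interferon gamma signalling, 0 to 1 of type I interferon signalling, 0 to 2 of the other GTPases, 0 to 1 of the caspase-11 list and 0 to 9 of the other interferon gamma targets; called higher were 0 to 1 of the caspase-11 list and 0 to 1 of the prenylation list. The share of Gbp9 in the GBP sum, 0.0142 points higher in OA with all libraries, turned to −0.0731 points without Gbp2 and ranged from −0.1004 to 0.1304 points with 1 library left out (−0.0827 without control replicate 3, −0.1004 without OA replicate 1). TPM gives no depth, so counting error could not be set beside any of these values.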
